A study of Mus musculus with 2 samples.

Results

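The cytosolic heat shock chaperones described here are 10 genes, Hspa1a, Hspa1b, Hspa8, Hsp90aa1, Hsp90ab1, Dnajb1, Dnaja1, Hsph1, Hspb1 and Hspe1, of the 27998 genes listed for each library. They were listed by name rather than by their values, although with earlier results of these data known, and each symbol was found once. The label does not cover all of them, since the Hspe1 protein works in the mitochondrial matrix. Their levels were compared between undamaged mouse liver (0 h) and liver at 48 hours after partial hepatectomy (PHx48h), an operation that removes much of the liver and after which the rest regrows, and between groups of cell barcodes within each library.

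Both libraries came from C57BL/6 mice on a normal diet, 10 to 12 weeks old per the labels (the study's methods name adult males and a lower starting age), with no transgene or drug. Hepatocytes were isolated by collagenase perfusion, and 1 droplet scRNA-Seq library was made per time point from 1 preparation. The labels name PHx surgery as the protocol of both libraries and describe the 0 h library as healthy, undamaged liver. With 1 library per time point there is no replicate, so no test was made: every interval below is a 95% interval for counting error only, and time, mouse, surgery and library cannot be told apart.

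Heat shock chaperones bind unfolded or partly folded proteins and help them reach or keep their shape. HSP70 proteins bind short hydrophobic stretches with the help of J-domain proteins (the HSP40 family) and exchange factors, while HSP90 proteins act later, on clients such as kinases and nuclear receptors. Some of these genes are transcribed at low levels until proteins are damaged, when heat shock factor 1 binds arrays of the unit nGAAn, called heat shock elements, in their promoters. Others are transcribed all the time and serve newly made proteins.

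Short promoter stretches are shown for 4 members because they set the inducible genes beside the mitochondrial one, with the letters of a heat shock element in capitals. The sequences are from RefSeq, build GRCm38.p6, and positions are counted back from the start of transcription. The search covered the 250 bases before the start, on both strands, for 2 joined units (GAANNTTC or TTCNNGAA) and for 3 (either of these followed by NN and then by GAA or TTC in turn, so that each 3-unit match also holds 2-unit ones). The reference held promoters for 7 of the 10 members, without Hspa8, Hsp90aa1 and Hsp90ab1.
Hspa1a, minus strand, chr17:34972227-34972286, -130 to -71: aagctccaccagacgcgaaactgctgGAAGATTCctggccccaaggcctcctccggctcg
Hspa1b, minus strand, chr17:34959309-34959368, -130 to -71: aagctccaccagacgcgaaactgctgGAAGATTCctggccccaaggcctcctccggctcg
Hspb1, plus strand, chr5:135887789-135887848, -130 to -71: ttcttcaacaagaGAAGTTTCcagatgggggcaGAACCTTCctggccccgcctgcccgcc
Hspe1, plus strand, chr1:55088056-55088079, -92 to -69: ccgTTCTAGAACCTTCCGGAAggc

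The Hspa1a and Hspa1b stretches were identical letter for letter, and the 250 bases before the 2 starts were equal at 247 positions. The 2-unit element was found in 6 of the 7 members with a promoter (not in Dnajb1), beside 14.5% of all 27025 genes with one. The 3-unit element was found in Hspe1 alone of the 7, where 2 overlapping matches ran from -89 to -72, beside 0.514% of all genes. The Hspe1 stretch also lies in an annotated exon of Hspd1, the gene of its partner chaperonin, which is transcribed in the opposite direction. A match is a description of letters and shows no binding.

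Barcodes were sorted by the share of their unique molecular identifiers (UMIs, 1 for each captured transcript molecule) that came from the 13 mitochondrial genes. A high share is often read as a sign of a damaged cell, but hepatocytes hold many mitochondria. Barcodes above 30% numbered 3870 of 59202 at 0 h and 765 of 1586 at PHx48h. Barcodes under 2%, with the clusters of other cell types left out, numbered 52188 and 503. The third set held barcodes of clusters that carried the markers of another liver cell type, 872 at 0 h and 91 at PHx48h. Levels are UMIs per 1000000 non-mitochondrial UMIs (CPM), summed over the barcodes of a set. The 3 sets held 5778391, 77935358 and 2101543 such UMIs at 0 h and 5103719, 3019679 and 619131 at PHx48h. The libraries differed in depth, with a median of 1436 UMIs per barcode at 0 h and 6839 at PHx48h, and 148 barcode sequences occurred in both. The shallowest barcode had 1183 UMIs at 0 h and 4578 at PHx48h. The paper kept far fewer hepatocytes of the undamaged liver after its own filters. Those filters left out cells with high mitochondrial content, at a limit its methods do not give. The barcodes above 30% may therefore be largely ones that the paper did not use. Whether each 0 h barcode under 2% holds a cell or only loose RNA was not tested, and every comparison with that set carries this limit.

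Hepatocyte markers summed to 121043 CPM at 0 h and 122837 CPM at PHx48h in barcodes above 30%, where macrophage, endothelial and stromal markers summed to between 27.3 and 66.2 CPM each. In the non-hepatocyte sets the 10 hepatocyte markers still reached 63.6% of their level in barcodes under 2% at 0 h and 34.0% at PHx48h, with none of them at 0. Hepatocyte RNA was therefore present in the non-hepatocyte barcodes, in unequal amounts at the 2 times, and its part in the member levels given for them was not tested.

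In the barcodes above 30% mitochondrial, 4 of the 10 members were at least 2-fold higher at PHx48h than at 0 h and none was at least 2-fold lower. They were Hspa8, Hsp90aa1, Dnaja1 and Hspe1, at 2.60- to 3.24-fold. Of the 5228 genes with at least 20 CPM at either time, 27.4% were at least 2-fold higher and 5.7% at least 2-fold lower, and 6 of the members reached that level. With TMM scaling, a factor set from the bulk of the genes, these shares were 12.3% and 15%, and 3 members were called higher. The median log2 ratio of those genes was 0.53, that of the 6 members at this level 1.45, and that of all 10, with the 4 under 20 CPM whose ratios the added 5 CPM shrinks, 0.55. A member low at 0 h passed this filter through its PHx48h level, so the median of the 6 is given as a description. The 10 members together had 1149 CPM at 0 h and 2694 CPM at PHx48h.

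Hspa8, the HSP70 that cells make at all times, had 290 CPM at 0 h (1675 UMIs) and 938 CPM at PHx48h (4787 UMIs) in these barcodes. The ratio was 3.24 (3.06 to 3.42), and its log2 ratio of 1.68 stood above that of 91.8% of the genes tested. Hsp90aa1, the HSP90 form that stress can induce, had 107 CPM at 0 h and 326 CPM at PHx48h, a ratio of 3.06 (2.79 to 3.36).

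Hsp90ab1, the HSP90 form made at all times, had 469 CPM at 0 h and 663 CPM at PHx48h, a ratio of 1.41 (1.34 to 1.49). The 2 HSP90 genes thus differed in their change beyond counting error. On TMM scaling, which moved the median of all genes from 0.53 to -0.06, the log2 ratio of Hsp90ab1 went from 0.50 to -0.06, while that of Hsp90aa1 was 1.02, so a direction for Hsp90ab1 rests on the scaling. Such a factor is the same for every gene of a library and cannot change the order of the pair.

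Of the J-domain proteins, which deliver clients to HSP70, Dnaja1 had 82.4 CPM at 0 h and 214 CPM at PHx48h, a ratio of 2.60 (2.33 to 2.90). Its log2 ratio was 1.33 and became 0.79 on TMM scaling, where it no longer reached 2-fold. Dnajb1, the heat-inducible J-domain protein, had 9.0 CPM (52 UMIs) and 15.3 CPM (78 UMIs). Hsph1, an exchange factor of HSP70, had 16.1 CPM and 22.7 CPM, a ratio of 1.41 (1.07 to 1.88).

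Hspe1, the 10-kDa lid of the mitochondrial chaperonin, had 155 CPM at 0 h and 494 CPM at PHx48h, a ratio of 3.20 (2.96 to 3.45). Its partner Hspd1 had 144 CPM and 383 CPM, a ratio of 2.66 (2.45 to 2.89). Both genes of the pair that share the promoter region printed above were higher at PHx48h in these barcodes.

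The inducible HSP70 genes were near the floor of the measurement. Hspa1a had 0.865 CPM at 0 h (5 UMIs in 3870 barcodes) and 3.72 CPM at PHx48h (19 UMIs in 765 barcodes), a ratio of 4.30 (1.55 to 14.7). Hspa1b had 7.96 CPM (46 UMIs) and 9.21 CPM (47 UMIs), a ratio of 1.16 (0.754 to 1.78). Both genes stayed under 20 CPM, and with 5 CPM added to each level, as done for every log2 ratio here, neither reached 2-fold. The small heat shock protein Hspb1, which holds unfolded proteins without using ATP, had 13.0 CPM (75 UMIs) and 7.25 CPM (37 UMIs), a ratio of 0.559 (0.366 to 0.839), the only member with a lower level at PHx48h in this set. On TMM scaling the log2 ratios of Hspa1b and Hsph1 were also below 0, at -0.22 and -0.05.

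**Figure D1:**
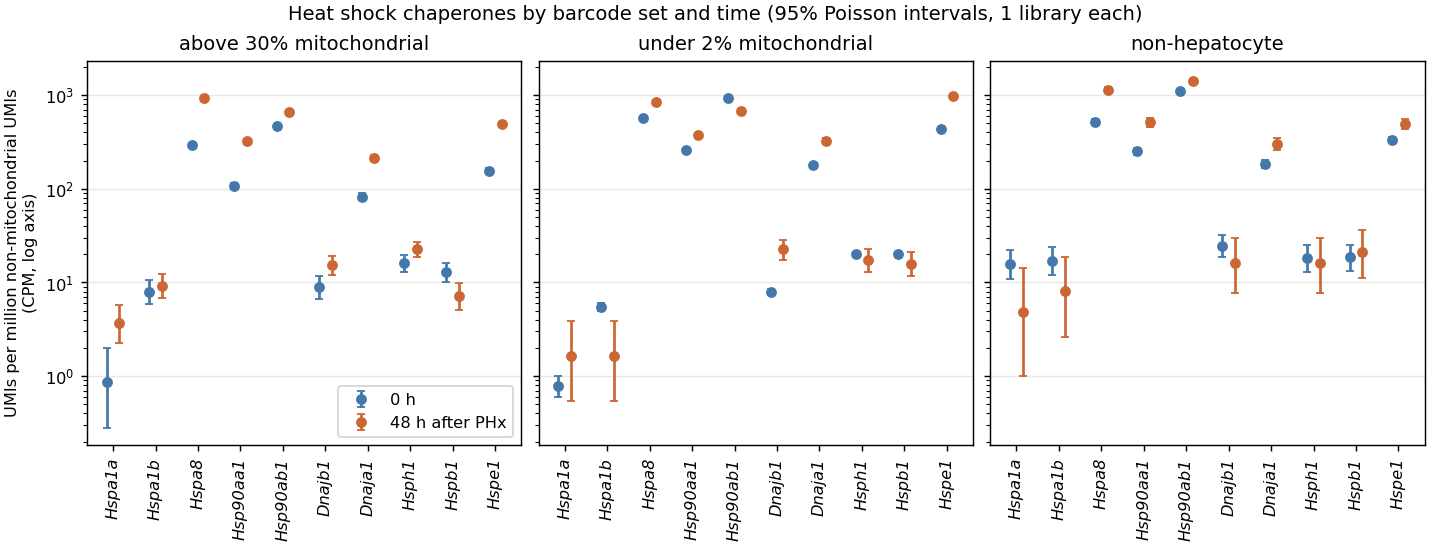
Level of each chaperone gene (vertical axis, CPM, log scale) at 0 h (blue) and at 48 hours after PHx (orange) in barcodes above 30% mitochondrial, under 2% mitochondrial and non-hepatocyte. Points are pooled levels of 1 library each and bars are 95% Poisson intervals. Hspa8 went from 290 to 938 CPM above 30% mitochondrial, and Hspa1a and Hspa1b lay under 20 CPM in every set.

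In barcodes under 2% mitochondrial the differences between the times were smaller for most members. Dnajb1 and Hspe1 were at least 2-fold higher at PHx48h, 2 of 10, and none was at least 2-fold lower. Of the 4516 genes tested in this set, 26.2% were at least 2-fold higher and 20.5% lower (18.2% and 28.7% with TMM), and 8 of the members were among them. Hspe1 had 438 CPM at 0 h and 982 CPM at PHx48h, a ratio of 2.24 (2.16 to 2.33). Dnajb1 had 7.90 CPM (616 UMIs) and 22.5 CPM (68 UMIs), a ratio of 2.85 (2.18 to 3.66), and passed the filter only through its PHx48h level. On TMM scaling the log2 ratios were 0.85 for Hspe1 and 0.87 for Dnajb1, under 2-fold.

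Hspa8 had 571 and 842 CPM here, a ratio of 1.47 (1.42 to 1.53). The ratio of Hsp90aa1 was 1.43 (1.35 to 1.52) and that of Dnaja1 was 1.81 (1.70 to 1.93). Each of these 3 intervals lies below the interval of the same gene in barcodes above 30%, so that the ratios of the 2 sets differed by more than counting error. Whether mice differ in this way was not tested. Hsp90ab1 had 924 CPM at 0 h and 678 CPM at PHx48h, a ratio of 0.734 (0.702 to 0.767), on the other side of 1 from its ratio above 30%. On TMM scaling its log2 ratio was below 0 in both sets, at -0.75 here.

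Hspa1b had 5.45 CPM at 0 h (425 UMIs) and 1.66 CPM at PHx48h (5 UMIs), a ratio of 0.304 (0.0981 to 0.714). Hspa1a had 0.783 CPM (61 UMIs) and 1.66 CPM (5 UMIs). With 5 UMIs for each gene at PHx48h, the ratio of neither can be placed more closely than its interval, which for Hspa1a ran from 0.663 to 5.21. Hsph1, at 20.2 and 17.2 CPM, and Hspb1, at 20.3 and 15.9 CPM, differed by less than counting error.

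**Figure D2:**
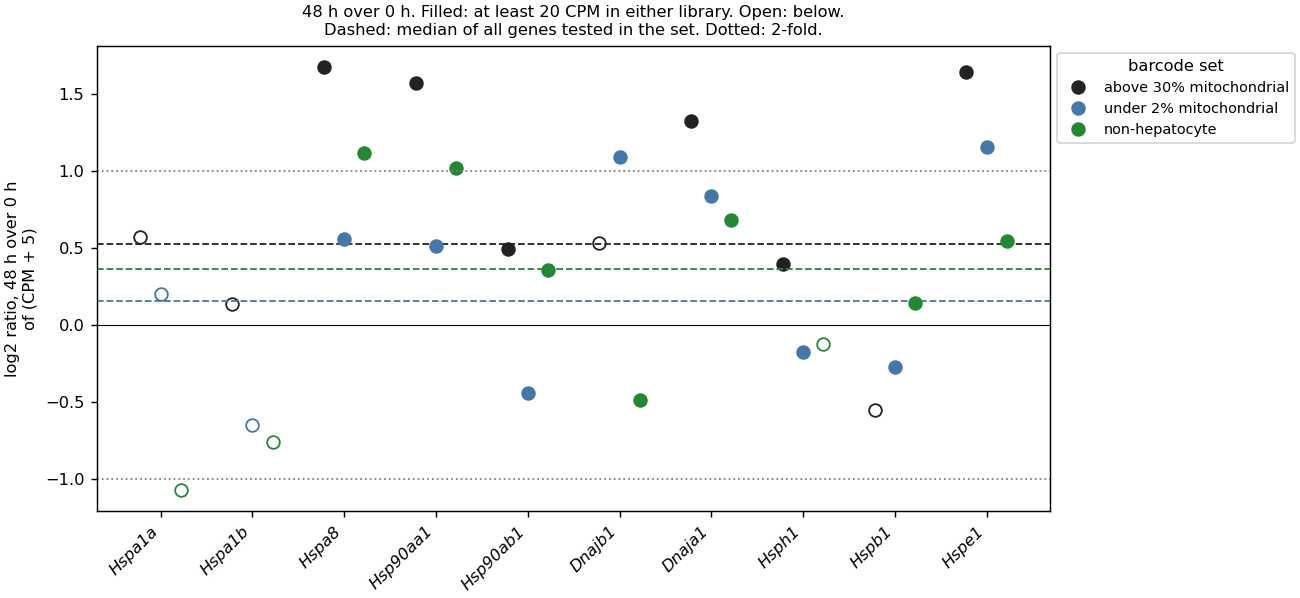
Log2 ratio of PHx48h over 0 h, on CPM with 5 added (vertical axis), for each chaperone gene in the 3 barcode sets (colours). Filled points reached 20 CPM at either time, dashed lines are the median of all genes tested in the set of that colour, and dotted lines mark 2-fold. Hspa8, Hsp90aa1, Dnaja1 and Hspe1 lie above the upper dotted line for barcodes above 30% mitochondrial, where Hspa8 has 1.68, and Hspa1a is at -1.07 for non-hepatocyte barcodes.

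Within the 0 h library, barcodes above 30% mitochondrial held less of the abundant members than barcodes under 2%. Hspe1 was at 155 against 438 CPM, a ratio of 0.353 (0.330 to 0.377), Hsp90aa1 at a ratio of 0.409 (0.377 to 0.443) and Dnaja1 at 0.459 (0.418 to 0.502). These 3 of the 10 were at least 2-fold lower and none was at least 2-fold higher, where of 4295 genes tested 9.9% were lower and 9.59% higher. Hspa8 and Hsp90ab1 were just inside 2-fold, with ratios of 0.508 (0.483 to 0.533) and 0.507 (0.488 to 0.527). The summed level of the 10 was 1149 CPM above 30% and 2429 CPM under 2%.

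Within the PHx48h library that gap was smaller in CPM, but the genes tested shifted too. Their median log2 ratio, above 30% over under 2%, was -0.15 at 0 h and 0.41 at PHx48h. The median of all members, low ones included, was -0.73 and -0.11, below that of the genes tested at both times. The smaller gap is therefore not read as particular to the members. The summed level was 2694 CPM above 30% and 3260 CPM under 2%. The ratio was 1.11 (1.06 to 1.17) for Hspa8, 0.873 (0.809 to 0.943) for Hsp90aa1 and 0.978 (0.925 to 1.03) for Hsp90ab1. The log2 ratio of Hspa8, 0.16, stood above that of only 41.2% of the genes tested. Dnaja1, at 0.658 (0.603 to 0.718), and Hspe1, at 0.503 (0.477 to 0.531), were lower above 30% at this time also. Hspa1b was the 1 member at least 2-fold higher above 30%, with 47 UMIs against 5 and a ratio of 5.56 (2.22 to 17.9), beside 24.7% of the 5219 genes tested. Hspa1b was under 20 CPM in both sets and is not among the 5219, and none of the 7 members that are was at least 2-fold higher. No member was at least 2-fold lower, beside 6.92% of the genes tested. All 4 members that were at least 2-fold higher at PHx48h above 30% had a lower 0 h level there than under 2%. So had Hsp90ab1, Hsph1 at a ratio of 0.798 and Hspb1 at 0.640, but not Hspa1a, Hspa1b and Dnajb1. The 4 were picked by their ratio over that same 0 h pool, which favours low levels in it, so nothing is read from this. At PHx48h only Hspa8 of the 4 was higher above 30% than under 2%, at 938 against 842 CPM, while Hsp90aa1 had 326 against 374 CPM, Dnaja1 214 against 326 CPM and Hspe1 494 against 982 CPM.

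Over 7 bins of mitochondrial share the 0 h levels of Hspa8, Hsp90ab1 and Hspe1 were lower in each bin than in the one before. Hspa8 had 571 CPM under 2%, 409.7 CPM from 10 to 20% and 255 CPM above 50%. Hspe1 had 438 CPM, 336 CPM and 132 CPM in the same bins, and Hsp90ab1 had 924 CPM, 719 CPM and 432 CPM. The largest fall of Hspe1 was at the 30% limit, from 304 CPM at 20 to 30% to 162 CPM at 30 to 50%. Low members varied. From under 2% to above 50%, Hspa1b went from 5.45 to 10.6 CPM (15 UMIs) and Hsph1 from 20.2 to 20.5 CPM. Dnajb1 went from 7.90 to 7.07 CPM, Hspb1 from 20.3 to 11.3 CPM and Hspa1a from 0.783 CPM to 0 UMIs. At PHx48h, Hspe1 went from 982 CPM under 2% to 459 CPM above 50%, while Hspa8 lay between 745 and 983 CPM in all 7 bins. The bins from 2 to 5% and from 5 to 10% held 36 and 30 barcodes at PHx48h, and the intervals there are wide.

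Pooled over the hepatocyte-like barcodes from 2 to 30% mitochondrial, 2240 at 0 h and 185 at PHx48h, no member was 2-fold higher or lower, beside 25.2% of 5019 genes higher and 7.47% lower. Dnaja1 had the largest ratio of the members that reached 20 CPM, 1.85 (1.67 to 2.06), followed by Hspa8 at 1.81 (1.70 to 1.92), and their intervals overlap. These barcodes had 468 CPM of Hspa8 at 0 h, between the levels of the sets on either side, and 846 CPM at PHx48h.

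**Figure D3:**
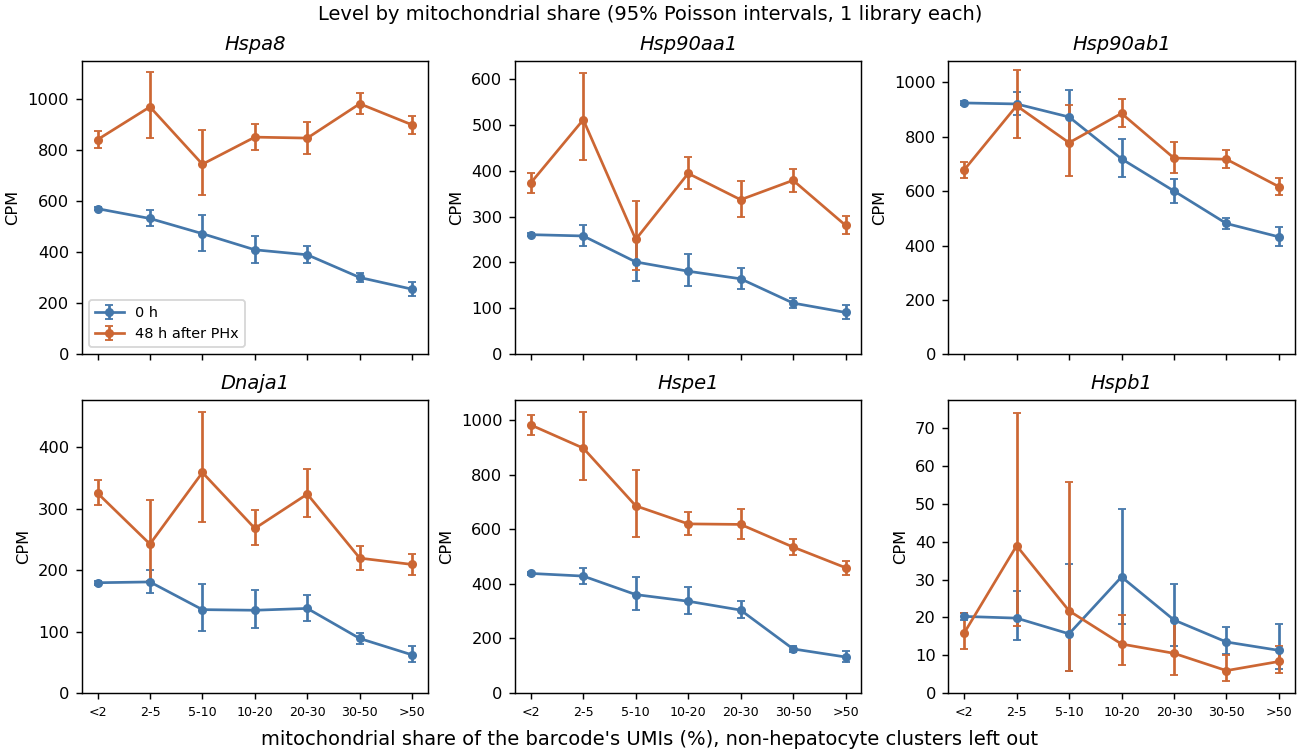
Level of 6 chaperone genes (vertical axes, CPM from 0) by the mitochondrial share of the barcode's UMIs (horizontal axis, percent), at 0 h (blue) and 48 hours after PHx (orange). Points are pooled levels of 1 library each with 95% Poisson intervals. Hspa8 at 0 h goes from 571 CPM under 2% to 255 CPM above 50%, and at PHx48h stays between 745 and 983 CPM.

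In the non-hepatocyte barcodes, Hspa8 and Hsp90aa1 were at least 2-fold higher at PHx48h and Hspa1a was at least 2-fold lower. Of 7291 genes tested, 22.5% were at least 2-fold higher and 11.7% lower (12.2% and 17.9% with TMM), and 7 members were among them, without Hspa1a. Hspa8 had 521 CPM at 0 h and 1134 CPM at PHx48h, a ratio of 2.18 (1.98 to 2.39). Hsp90aa1 had 251 and 515 CPM, a ratio of 2.05 (1.78 to 2.36). On TMM scaling neither reached 2-fold, with log2 ratios of 0.73 and 0.64. Hsp90ab1 had 1094 and 1404 CPM, the highest of the 3 sets at each time, a ratio of 1.28 (1.19 to 1.39).

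The make-up of the non-hepatocyte barcodes differed between the libraries. At 0 h they held 268 endothelial-like, 126 stromal-like and 396 macrophage-like barcodes, with 23 B-like, 51 T or NK-like and 8 neutrophil-like ones, and at PHx48h 38 endothelial-like, 35 stromal-like and 18 macrophage-like ones. Classes with at least 20 barcodes at both times were therefore compared alone. In the endothelial-like barcodes, Hspa8 had 506 CPM at 0 h and 1154 CPM at PHx48h, a ratio of 2.28 (1.95 to 2.67), and Hsp90aa1 had 236 and 569 CPM, a ratio of 2.41 (1.91 to 3.04). These 2 of the 10 were at least 2-fold higher, beside 23.1% of the 7216 genes tested. In the stromal-like barcodes, Hspa8 had 522 and 1146 CPM, a ratio of 2.19 (1.78 to 2.72), and Dnaja1 had 150 and 355 CPM, a ratio of 2.37 (1.60 to 3.57), again 2 of the 10, beside 44.2% of the 7186 genes tested. The median log2 ratio of all genes tested was 0.29 in the endothelial-like and 0.78 in the stromal-like barcodes. The log2 ratio of Hspa8 stood above that of 81.7% of the genes in the first, at 1.18, and of 60.2% in the second, at 1.13.

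At 0 h, 3 of the 10 members were at least 2-fold higher in the non-hepatocyte barcodes than in those under 2%, Hspa1a, Hspa1b and Dnajb1, beside 32.5% of 5876 genes tested. Hspa1a and Hspa1b were under 20 CPM in both sets and are not among the 5876. Of the 8 members that are, Dnajb1 alone was at least 2-fold higher, and it reached 20 CPM only in the non-hepatocyte barcodes, so its call is a description. Hspa1a had 15.7 CPM in the non-hepatocyte barcodes (33 UMIs in 872 barcodes) and 0.783 CPM in those under 2% (61 UMIs in 52188), a ratio of 20.1 (12.7 to 31.1). The ratio was 3.14 (2.17 to 4.42) for Hspa1b, at 17.1 against 5.45 CPM, and 3.13 (2.31 to 4.16) for Dnajb1, at 24.7 against 7.90 CPM. The other 7 members had ratios from 0.766 for Hspe1 to 1.18 for Hsp90ab1, among them Hsp90aa1 at 0.964 and Hspb1 at 0.915. Hspa1a and Hspa1b together count 33 and 36 UMIs in the non-hepatocyte barcodes and 61 and 425 in those under 2%, so that the balance of the pair was not the same, although the stretches printed above are. The last 500 bases of the 2 transcripts, the end that a 3′ library reads, shared no run of 50 bases, while 58.8% of such runs over the whole Hspa1a transcript occur in Hspa1b.

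Against the barcodes above 30% at 0 h, 6 of the 10 members were at least 2-fold higher in the non-hepatocyte barcodes and none was lower, beside 36.3% and 5.83% of 6072 genes. Hspa1a, under 20 CPM in both sets and so not among the 6072, had a ratio of 18.1 (7.04 to 59.5). The other 5 were Hsp90aa1, Hsp90ab1, Dnajb1, Dnaja1 and Hspe1, at 2.17 to 2.75, and Dnajb1 reached 20 CPM only in the non-hepatocyte barcodes. At PHx48h, 2 of the 10 were at least 2-fold higher there and none lower, beside 35.6% and 14.8% of 7348 genes. They were Hsp90ab1, with a ratio of 2.12 (1.96 to 2.28), and Hspb1, at 21.0 CPM from 13 UMIs against 7.25 CPM from 37, a ratio of 2.90 (1.41 to 5.57). Hspb1 passed the filter only through its level in the non-hepatocyte barcodes. Against the barcodes under 2% at PHx48h, Hsp90ab1 alone of the 10 was at least 2-fold higher, with a ratio of 2.07 (1.91 to 2.24), beside 47.9% of 6935 genes, and none was lower, beside 9.94%.

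By class at 0 h, Hspa1a had 21.2 CPM (13.1 to 32.4) in macrophage-like barcodes from 21 UMIs, 8.84 CPM (3.25 to 19.2) in endothelial-like barcodes from 6 UMIs and 12.1 CPM (2.51 to 35.5) in stromal-like barcodes from 3 UMIs. The 51 T or NK-like barcodes had the highest level, 24.8 CPM (5.12 to 72.6) from 3 UMIs, and the 23 B-like and 8 neutrophil-like barcodes had 0 UMIs, which by the exact interval allows up to 72.0 and 280.1 CPM. The macrophage-like class held 61 barcodes in a cluster whose leading genes also included the endothelial and stromal markers Kdr, Ptprb and Dcn. Each of the intervals of these 4 classes with a UMI lies above the 0.599 to 1.01 CPM of barcodes under 2%, while they overlap each other. At PHx48h, Hspa1a had 3 UMIs in the non-hepatocyte barcodes, 4.85 CPM, and the ratio to 0 h was 0.309 (0.0606 to 0.984).

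**Figure D4:**
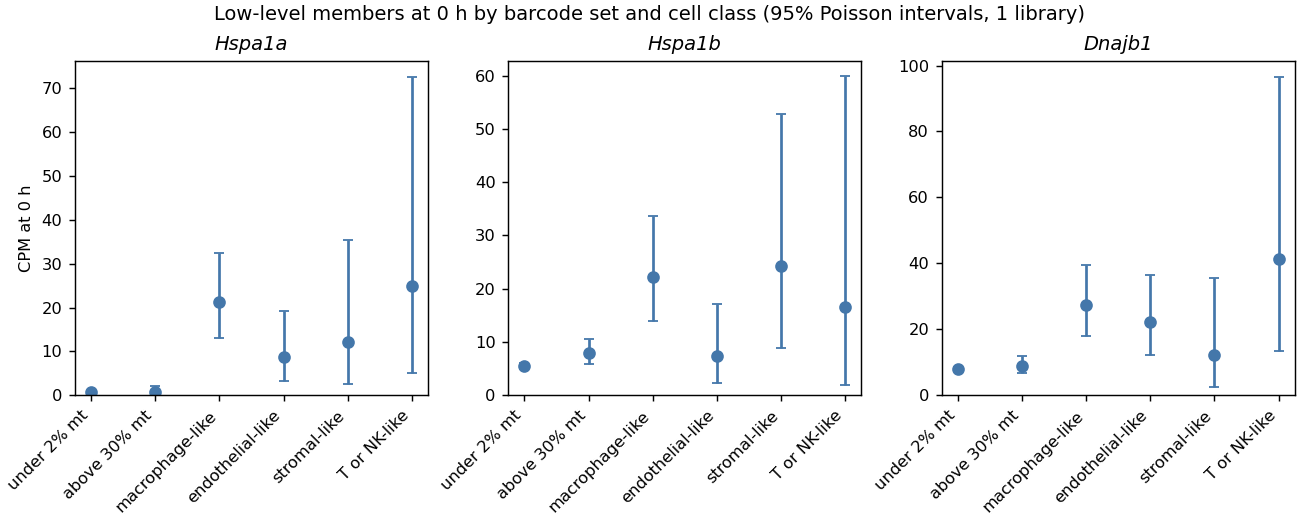
Level at 0 h (vertical axes, CPM from 0) of Hspa1a, Hspa1b and Dnajb1 in barcodes under 2% and above 30% mitochondrial and in 4 classes of non-hepatocyte barcodes. Points are pooled levels of 1 library with 95% Poisson intervals. Hspa1a is at 0.783 CPM under 2% mitochondrial and at 21.2 CPM in macrophage-like barcodes.

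To set the libraries side by side per barcode, each barcode was thinned to 1000 non-mitochondrial UMIs, which left out the 1399 shallower ones of the 3870 above 30% at 0 h and 4 at PHx48h. A UMI of Hspa8 was found in 25.0% (23.3 to 26.8) of the barcodes above 30% at 0 h and in 56.9% (53.3 to 60.5) at PHx48h. The unthinned shares were 31.7% and 94.6%. For Hspe1 the thinned shares were 14.2% (12.9 to 15.7) and 38.5% (35.0 to 42.1), for Hsp90aa1 9.59% (8.46 to 10.8) and 24.7% (21.7 to 27.9), and for Hsp90ab1 36.5% (34.6 to 38.4) and 46.9% (43.3 to 50.5). Hspa1a was found in 0.0809% of the thinned barcodes above 30% at 0 h and in 0.394% at PHx48h, with overlapping intervals. In thinned non-hepatocyte barcodes at 0 h it was found in 1.61% (0.880 to 2.68), and in those under 2% in 0.0709% (0.0499 to 0.0977).

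For the more abundant members, the spread over barcodes was close to or somewhat above that which sampling alone would give. The variance of the thinned UMIs over their mean, which is 1 under sampling alone, lay between 0.97 and 1.27 for the 10 members in barcodes above 30% at PHx48h, with Hspb1 at 0.99, Hsp90aa1 at 1.13, Hspa8 at 1.16 and Hspa1b highest. At 0 h it lay between 0.99 and 1.08. For the 10 members summed it was 1.16 at 0 h and 1.20 at PHx48h. Hspa1a, Dnajb1 and Hspb1 had at most 1 UMI in any thinned barcode above 30%. For counts this low the measure stays near 1 however a gene is spread. Over the 45 pairs of members, Spearman's rho across thinned barcodes above 30% ran from -0.04 to 0.11 at 0 h and from -0.03 to 0.20 at PHx48h. Counts this sparse hold weak correlations down, and no pair is read from them.

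Barcodes above 30% at PHx48h were also divided by UMIs of 25 proliferation genes among the 1000 thinned UMIs, 61 barcodes with at least 3 and 397 with none. Hsp90aa1 had 524 CPM in the first and 247 CPM in the second, a ratio of 2.12 (1.84 to 2.45). Dnajb1 had 28.5 CPM from 15 UMIs and 11.1 CPM from 28 UMIs, a ratio of 2.58 (1.28 to 4.99). These 2 of 10 were at least 2-fold higher, beside 5.02% of 5682 genes tested. Only 7 of the 10 members are among the 5682. Dnajb1 is among them only through its level in the first group, so this count is a description. Hspa8 had 1293 and 857 CPM, a ratio of 1.51 (1.38 to 1.65), and Hsp90ab1 676 and 639 CPM, a ratio of 1.06 (0.940 to 1.19). Hsph1, at a ratio of 1.57 (0.886 to 2.68), Hspb1, at 1.70 (0.548 to 4.51), and Hspe1, at 1.13 (0.991 to 1.29), were also higher in the first, within counting error. The remaining members had lower levels there. They were Hspa1b at 3 against 31 UMIs, a ratio of 0.465 (0.0910 to 1.49), Hspa1a at 0 against 10 UMIs and Dnaja1 at a ratio of 0.845 (0.676 to 1.05). None was at least 2-fold lower with 5 CPM added, beside 0.968% of the genes tested. The median mitochondrial share was 54.2% in the first and 57.1% in the second, and the median depth 5346 and 4435 UMIs.

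Other chaperone lists were counted in the barcodes above 30% to place the 10 members, against the same 27.4% of genes higher and 5.7% lower. Of 31 co-chaperones and regulators of HSP70 and HSP90, 22 reached 20 CPM, 15 were at least 2-fold higher at PHx48h and none lower. The median log2 ratio over the 22 was 1.12. Several of the 15, Fkbp5 and Bag3 among them, were under 20 CPM at 0 h and passed the filter through their PHx48h level. The count and the median are therefore descriptions. On TMM scaling 21 reached 20 CPM, 4 were at least 2-fold higher and the median was 0.63, so most of these calls rest on the scaling while the sign of the median does not. The highest were Fkbp5, an HSP90 immunophilin, at 4.50 and 26.8 CPM, Cdc37, which brings kinases to HSP90, at 27.0 and 96.6 CPM, and Dnaja2, a J-domain protein, at 28.7 and 101 CPM. The lowest were Sgta at 67.8 and 64.3 CPM, Dnajb2 at 31.5 and 30.8 CPM and Hsf2 at 24.4 and 23.9 CPM. Bag3, an exchange factor that heat shock factor 1 induces, had 11.4 CPM (66 UMIs) and 32.1 CPM (164 UMIs), a ratio of 2.81 (2.10 to 3.80).

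The cytosolic chaperonin CCT, a ring that folds actin and tubulin, had 7 of its 8 listed subunits in the files, and 6 of the 7 were at least 2-fold higher, or 3 on TMM scaling. Cct5 had 23.9 and 149 CPM, Cct7 50.2 and 185 CPM and Cct3 50.7 and 156 CPM. The lowest were Cct8 at 88.8 and 127 CPM, Cct4 at 43.1 and 96.8 CPM and Cct2 at 39.5 and 101 CPM. Of 10 mitochondrial chaperones and proteases 8 reached 20 CPM and 3 were at least 2-fold higher (1 on TMM scaling), which were Grpel1 at 37.0 and 139 CPM, the mitochondrial HSP70 Hspa9 at 179.8 and 506 CPM, and Hspd1. Clpp had 85.7 and 92.5 CPM, Clpb 56.9 and 79.2 CPM and Dnaja3 31.7 and 55.8 CPM.

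The chaperones of the endoplasmic reticulum went the other way. All 15 reached 20 CPM in the barcodes above 30%, none was at least 2-fold higher and 7 were at least 2-fold lower, at a median log2 ratio of -0.90. On TMM scaling 11 were lower and none higher. Hspa5, the HSP70 of that compartment, had 1777 CPM at 0 h and 795.5 CPM at PHx48h, a ratio of 0.448 (0.432 to 0.464). Hyou1, its exchange factor, had 242 and 45.5 CPM, Creld2 127 and 44.7 CPM and Calr 2140 and 830.0 CPM. Dnajb9 had 37.0 and 31.2 CPM, Dnajc3 296 and 241 CPM and P4hb 1991 and 1497 CPM. In the barcodes under 2%, 10 of the 15 were at least 2-fold lower, beside 20.5% of all genes tested there, and Hspa5 had 1699 and 315 CPM.

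Immediate early genes, which many signals and the isolation of cells induce within minutes, were counted in the same barcodes. Of the 22, 11 reached 20 CPM, 8 were at least 2-fold higher at PHx48h and none lower (3 of 9 and none on TMM scaling). The list summed to 393 CPM at 0 h and 839 CPM at PHx48h. Several of the 8, with Fos, Btg2 and Klf6 among them, passed the filter only through their PHx48h level, so this count too is a description. Fos had 2.77 and 44.1 CPM, Btg2 16.6 and 79.4 CPM, Klf6 2.42 and 20.6 CPM and Jun 37.6 and 109 CPM, while Junb had 51.4 and 38.6 CPM, Dusp1 40.3 and 37.8 CPM and Zfp36 74.8 and 98.8 CPM. These genes moved with the higher members between the libraries, and their part in the member levels was not tested. The 25 proliferation genes summed to 30.6 CPM at 0 h and 989 CPM at PHx48h. Among them 16 reached 20 CPM, and all 16 were at least 2-fold higher (15 of 15 on TMM scaling). None of the 16 was above 6.75 CPM at 0 h. All passed the filter through their PHx48h level, so the filter itself fixed this count and nothing is read from it. They ran from Pcna, at 6.75 and 39.97 CPM, Tpx2, at 0 UMIs and 20.4 CPM, and Cenpa, at 3.12 and 41.9 CPM, to Rrm2, at 1.21 and 98.6 CPM, Ube2c, at 0.519 and 78.4 CPM, and Cdc20, at 1.21 and 85.0 CPM.

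Over 13 sets of cell class and time, the genes whose levels followed 3 members most closely were sought among 7937 genes, by Pearson's r of log2 CPM with 5 added. For Hspa8 they were Psmd12 (0.94), Gtf2h5 (0.94), Mrps18c (0.94), Nudc (0.93) and Timm13 (0.93). For Hspa1a they were Nifk (0.90), Irf1 (0.86), Pik3c3 (0.86), AU020206 (0.86) and Itch (0.86). For Hspb1 they were Ccdc90b (0.86), 9430016H08Rik (0.83), Tmem123 (0.81), Msl3 (0.79) and Sft2d1 (0.79). The 13 sets come from 2 libraries and share depth and hepatocyte RNA, so these values are descriptions. The highest of 7937 values over 13 sets are also high by selection. Hspa1a rested on few UMIs in most sets, with 3 each in the stromal-like and T or NK-like barcodes at 0 h and 0 in the B-like ones.

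On GRCm38, the assembly of mm10, the members lie on 7 chromosomes by the GENCODE M21 annotation, and all are protein-coding. Hspa1a (chr17:34969190-34972156) and Hspa1b (chr17:34956436-34959238) are neighbours on the minus strand, 9951 bases apart, and Hsp90ab1 (chr17:45567775-45573271, minus) is on the same chromosome. Hspb1 (chr5:135887919-135889563, plus) and Hsph1 (chr5:149614287-149636376, minus) share chromosome 5. The others are Hspa8 (chr9:40800984-40810087, plus), Hsp90aa1 (chr12:110690605-110702728, minus), Dnajb1 (chr8:83608193-83612653, plus), Dnaja1 (chr4:40722150-40737149, plus) and Hspe1 (chr1:55088132-55091307, plus).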

How the data were processed

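Droplet scRNA-Seq libraries (10X Genomics version 2 chemistry) from isolated mouse hepatocytes, 1 at 0 h and 1 at 48 hours after PHx, were analysed. Per the labels, reads went through Cell Ranger (version not stated) on mm10. The authors deposited raw UMI counts, whole numbers for each gene in each barcode. Gene identifiers matched GENCODE M21 for 10 of 10 members. The members and all lists, thresholds and alternatives were chosen with earlier results of these data known.

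UMI counts were summed over the barcodes of a set and divided by the non-mitochondrial total. Log2 ratios used CPM plus 5, a call was a 2-fold difference, and the background was all genes with at least 20 CPM in either pool. Levels carry exact Poisson intervals, ratios exact conditional binomial intervals and shares exact Clopper-Pearson intervals, all at 95%. They cover counting error only. No p-value was computed, since each group is 1 library. The code was tested on simulated counts.

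For the non-hepatocyte set, barcodes with at least 1000 UMIs, 500 genes, a depth of at least 10% of the 30th deepest barcode's and at most 30% mitochondrial UMIs were clustered per library with Scanpy 1.11.5 (2000 variable genes, 30 components, 15 neighbours, Leiden resolution 1.0). Clusters with markers of another class were divided once more at resolution 0.5, a step chosen after seeing the data. A cluster was named from lists of marker genes of each class, and 28 barcodes at 0 h and 20 at PHx48h stayed unnamed and entered no set. Scrublet called 0 of 55328 barcodes at 0 h, so it did not work there, and 5 of 702 at PHx48h, which were removed. Doublets may remain at 0 h.

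All 10 members were named in every set, as were the 3 highest and 3 lowest genes of each other list above 30% mitochondrial, and Hspd1, Bag3, Hspa5, Fos and Jun. TMM factors came from edgeR 4.0.16. Coordinates were read from GENCODE M21 and promoters from RefSeq. The alternatives were other pseudocounts, scalings, filters, limits on mitochondrial share, depth minimum, clusterings and thinning.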

Additional observations from a re-analysis of the deposited data

How the results depend on the processing

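No paired analysis was possible because each group is 1 library, and no replicate could be left out. In barcodes above 30% mitochondrial the count of members at least 2-fold higher at PHx48h lay between 3 and 5 over 17 alternatives and that of lower members stayed at 0. The other counts were less stable. In barcodes under 2%, 2 were higher, and 1 was with a pseudocount of 10 CPM, with totals without the 20 most abundant genes or with the mean of single barcodes, and 0 with TMM factors, while 1 was lower instead of 0 with a pseudocount of 1 CPM. In non-hepatocyte barcodes, 2 were higher, and 1 was with mitochondrial UMIs in the total, with the mean of single barcodes, with barcodes chosen by marker UMIs or without the cluster led by markers of several classes (added after seeing the data), and 0 with TMM factors or without the 20 most abundant genes. The 1 lower member there became 0 with a pseudocount of 10 CPM, and 2 with TMM factors or with barcodes chosen by marker UMIs. No member at least 2-fold higher or lower changed direction under these alternatives. Of the log2 ratios of single members, 42 of 510 moved by more than the half-width of their counting interval, on the log2 scale. Some alternatives, such as the filter, cannot move a ratio, so the share over all 510 hides the effect of scaling. TMM factors moved 6, 5 and 5 of the 10 members in barcodes above 30%, under 2% and non-hepatocyte. Totals without the 20 most abundant genes moved 5, 5 and 4. A count of 0 in the non-hepatocyte barcodes at PHx48h would still allow 4.85 CPM, and Hspa1a and Hspa1b had 3 and 5 UMIs there.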
